A study of Mus musculus with 20 samples.

Results

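Gene expression in the proximal colon (PC) was compared between mice that ate any raw potato starch and mice that ate none. The comparison uses all 20 RNA sequencing libraries of the series: 15 libraries from diets with 2, 5, or 10% resistant potato starch (RPS), 5 from each diet, against the 5 libraries from the same diet with 0% RPS. Libraries were placed by the starch percentage in their labels, and no measured value was used to choose them. The animals were C57BL/6 mice, an inbred laboratory strain, weaned at 3 to 4 weeks of age. All of them, the 0% RPS mice included, were fed the Total Western Diet (TWD), which copies the nutrients of a typical American diet, during a first period of 6 weeks, and their level of RPS was added to it during a second period of 3 weeks. A 1-cm piece of the whole PC wall, taken 0.5 cm from the cecum, gave the RNA, so each library mixes epithelium, connective tissue, muscle, nerve, and immune cells. The question was which genes shift on starch of any amount, and which of them shift to the same extent at 2, 5, and 10% RPS.

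Raw potato starch is a resistant starch: its granules are poorly digested in the small intestine, and bacteria of the cecum and colon ferment what arrives there, mainly to short-chain fatty acids. Colonocytes take up these acids through monocarboxylate transporters and burn butyrate as a fuel. The PC epithelium also faces the bacteria directly and keeps them at a distance with mucus, secreted lectins, peroxidases, and antibodies, while fibroblasts below the crypts supply the Wnt and BMP signals that position stem cells. Genes of each of these functions were followed.

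Library totals ran from 20581013 to 35083751 counts for 12701 genes and showed no difference between starch and no starch beyond their spread (medians 26453243 and 25237543, exact permutation test over all 15504 assignments, two-sided, p = 0.984). A count of 3 was taken as the detection floor, equal to 0.0855 to 0.146 CPM (counts scaled to the library total), which covers counting error only. Epithelial (Epcam, Vil1, Muc2), smooth muscle (Myh11), and fibroblast (Col1a1) markers were all present. Replicate 2 of the 0% RPS diet stood apart from every other library. Its mean distance to its own diet was 41.0 on variance-stabilised counts, against 20.2 to 29.2 in the 19 others. It held the highest summed level of fibroblast markers, 60188 normalised counts against at most 31136 in the 4 other 0% RPS libraries and 18555 to 31515 on starch. Its plasma cell markers summed to 109398, against at most 31293 and 26694 to 53446. Smooth muscle and macrophage markers were likewise highest in it, and where a named gene lost its call without it, both values are given. In whole tissue, fewer cells of a type and less RNA per cell cannot be told apart.

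The promoters of 4 genes are shown because these genes were among those that led the response that was alike on all starch diets and were called by both procedures used, DESeq2 and edgeR. Each is the 250 bases before the start of the canonical transcript on GRCm39, read 5′ to 3′ on the strand of the gene, and capitals mark motif matches. These lie at chr6:34388771-34389020 for Akr1b7, chr13:53155994-53156243 for Gm33424, chr16:97268149-97268398 for 2210009P08Rik, and chr14:121742665-121742914 for Slc15a1.
Akr1b7: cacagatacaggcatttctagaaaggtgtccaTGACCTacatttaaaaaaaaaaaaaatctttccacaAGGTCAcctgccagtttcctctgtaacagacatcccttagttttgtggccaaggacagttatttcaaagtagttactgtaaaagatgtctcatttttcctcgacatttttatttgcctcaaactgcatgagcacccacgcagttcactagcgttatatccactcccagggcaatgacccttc
Gm33424: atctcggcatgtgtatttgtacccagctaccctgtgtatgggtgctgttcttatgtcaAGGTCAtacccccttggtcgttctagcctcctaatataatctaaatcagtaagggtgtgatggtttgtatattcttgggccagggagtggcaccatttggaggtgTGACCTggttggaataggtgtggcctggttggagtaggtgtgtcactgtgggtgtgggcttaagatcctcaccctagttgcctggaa
2210009P08Rik: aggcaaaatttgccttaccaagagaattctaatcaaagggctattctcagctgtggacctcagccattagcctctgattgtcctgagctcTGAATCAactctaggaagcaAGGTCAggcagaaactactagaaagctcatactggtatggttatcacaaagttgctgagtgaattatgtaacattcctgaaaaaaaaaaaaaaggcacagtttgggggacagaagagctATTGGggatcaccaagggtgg
Slc15a1: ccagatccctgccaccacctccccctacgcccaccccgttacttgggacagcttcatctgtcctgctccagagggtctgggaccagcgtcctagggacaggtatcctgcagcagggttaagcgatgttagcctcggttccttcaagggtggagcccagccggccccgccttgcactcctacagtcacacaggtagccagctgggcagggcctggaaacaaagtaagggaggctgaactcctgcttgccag
The half-site of nuclear receptors, AGGTCA on either strand, occurs at −218 and −182 from the start of Akr1b7, at −192 and −87 of Gm33424, and at −140 of 2210009P08Rik. 2210009P08Rik also has an AP-1 element (TGANTCA) at −160 and a CCAAT box at −21. Slc15a1 held none of the 10 motifs searched, which besides these were a TATA box (TATAAA), an E-box (CACGTG), a CDX element (TTTATGG), an interferon-stimulated response element (ISRE, a pair of TTTC with 2 bases between), and the GAS, CRE, and GLI elements, each read on both strands. The promoter of Art2a, which also shifted alike and was called by both procedures, is not printed. It has a CCAAT box at −67 and an ISRE at −54. The half-site was found in 7 of the 21 promoters of genes that rose alike and 2 of the 16 of genes that fell alike, against 11.8% of all 12681 promoters of this length. The CCAAT box was in 8 of each, against 35.4%, and the ISRE in 3 and 2, against 2.98%. A match describes the letters in this window and shows neither binding nor its absence.

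The split into starch and no starch took up 11.96% of the squared distance among libraries, where all assignments of 5 of 20 libraries average 5.26% (exact permutation test, p = 0.00335). A gene was taken as changed when the mean of the starch diets differed from 0% RPS at least 1.5-fold with a DESeq2 p (adj) not above 0.05. By this rule 71 of 12561 genes were changed (0.565%), 44 upward (0.35%) and 27 downward (0.215%). All 71 had the same sign at 2, 5, and 10% RPS. Without the fold threshold, 545 genes passed (4.34%), 345 upward and 200 downward, and all 545 likewise kept 1 sign across the 3 diets. The diets share the 0% RPS libraries and the rule selects on their mean, so the common sign was largely set in advance. edgeR's quasi-likelihood test called 10 genes (0.0809%), 8 upward (0.0647%) and 2 downward (0.0162%), all of them among the 71. Before adjustment, p was under 0.05 for 2345 genes (19%) in edgeR and for 2487 (19.8%) in DESeq2. These counts depend on the 0% RPS libraries in particular: 112 genes were called without replicate 2 (0.891%), 109 without replicate 3, and 36 each without replicate 4 or replicate 5.

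Of the 71 genes, 37 shifted alike (0.295% of all tested), 21 upward (0.167%) and 16 downward (0.127%), meaning that their log2 fold changes at 2, 5, and 10% RPS lay within log2 of 1.5, or 0.585, of each other. The aldo-keto reductase Akr1b7, which reduces lipid-derived aldehydes, was the most even of the strong responses. Its normalised counts were 134, 118, 81.8, 108, and 79.8 in the 0% RPS libraries. On starch the lowest library was at 171, the median at 234, and the highest at 359. All 15 starch libraries thus lay above all 5 without starch. The increase was 1.246 ± 0.17 (log2, SE, DESeq2 p (adj) = 2.61e-09, edgeR p (adj) = 0.00601), and by diet it was 1.26 ± 0.21 at 2%, 1.24 ± 0.21 at 5%, and 1.24 ± 0.21 at 10% RPS. The difference between 10 and 2% RPS was −0.02 with a 95% interval of −0.42 to 0.37, which leaves room for a difference of either sign between those diets. Of its 50-base windows, 2.1% also occur in transcripts of other genes.

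Gm33424, a long noncoding RNA on chromosome 13 had the largest rise among the genes that shifted alike. It stood at 53.8, 26.0, 69.1, 49.4, and 36.3 normalised counts without starch and at 85.0 to 224 with a median of 135.0 on starch, again with no overlap. The rise was 1.53 ± 0.21 (log2, SE, DESeq2 p (adj) = 2.61e-09, edgeR p (adj) = 0.00601). Its diet values climbed from 1.27 through 1.48 to 1.85, which places it just inside the limit for alike genes, and the interval of 10 minus 2% RPS was 0.10 to 1.06. Akr1b7, Gm33424, and the stress-induced transcription factor Atf3 were the only genes called at 2% RPS taken alone (3 genes, 0.0239% of those tested), where 5 and 10% RPS gave 55 (0.438%) and 113 (0.9%).

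Art2a, a gene of the ADP-ribosyltransferase family, was at 329, 199, 227, 248, and 214 normalised counts without starch and at 323 to 601 with a median of 420.5 on starch. In 13 of 15 starch libraries it was above every 0% RPS library. It rose by 0.77 ± 0.12 (log2, SE, DESeq2 p (adj) = 1.17e-06, edgeR p (adj) = 0.0137), with 11.1% of its windows shared, chiefly with its neighbour Art2b. By diet the rise of Art2a was 0.57, 0.82, and 0.92 at 2, 5, and 10% RPS. The small gene 2210009P08Rik, of unknown function, was at 135 to 257 without starch and 247 to 449.5 with it. Its rise of 0.65 ± 0.13 (DESeq2 p (adj) = 0.000573, edgeR p (adj) = 0.0463) was largest at 5% RPS, 0.86, and smallest at 2%, 0.44. Without replicate 4 of the 0% RPS diet it was 0.53, under the fold threshold.

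**Figure D1:**
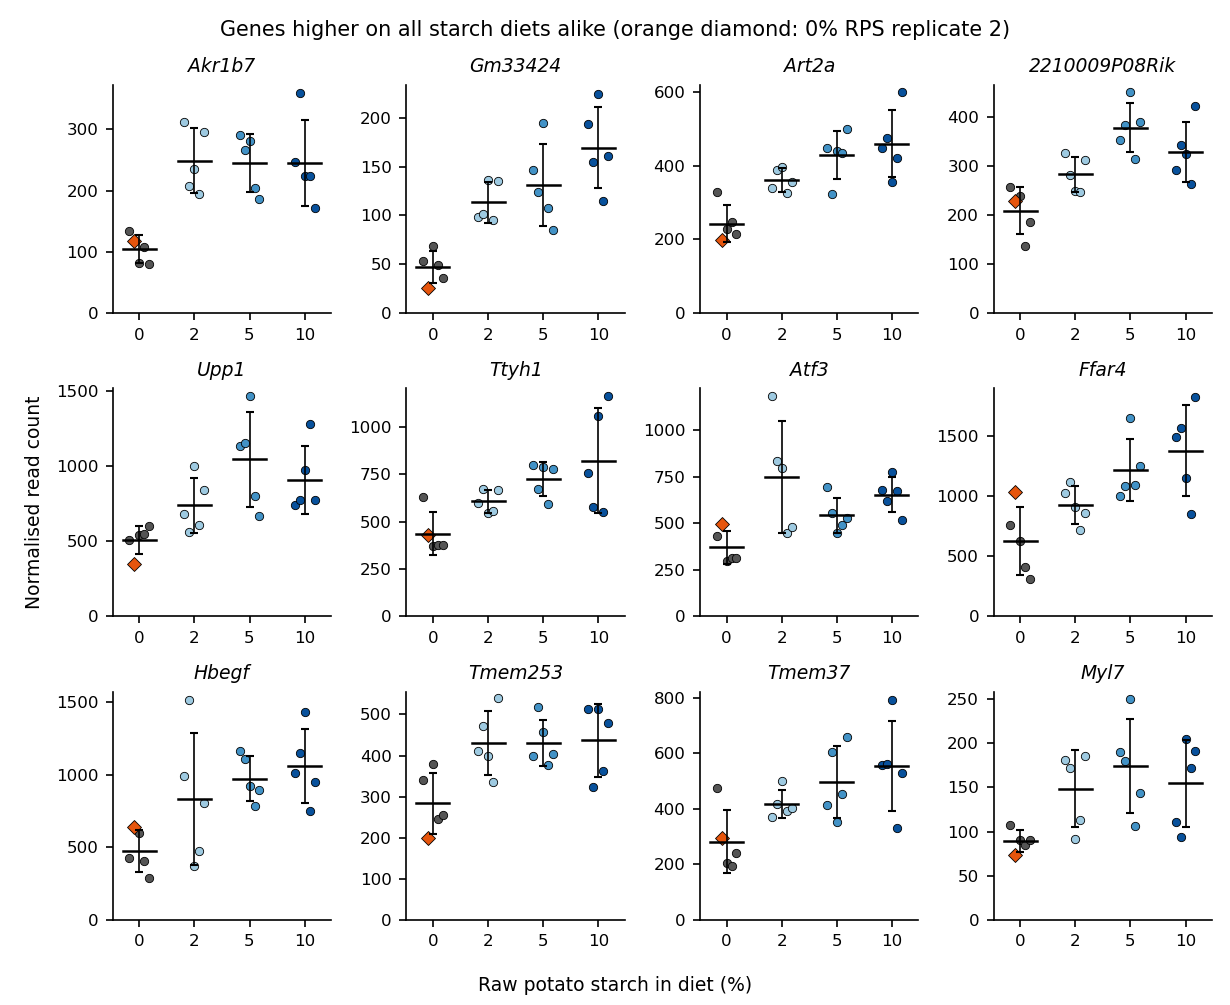
Normalised read counts of the 12 genes that shifted upward alike with the smallest adjusted p, one panel per gene, against the percentage of RPS in the diet. Points are libraries, horizontal lines are diet means with SD, and the orange diamond is 0% RPS replicate 2. Akr1b7 is level from 2 to 10% RPS, and the starch libraries of Akr1b7 and Gm33424 do not overlap those without starch.

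Upp1, uridine phosphorylase, was at 506, 352, 544, 547, and 599 normalised counts without starch and at 562 to 1464 on starch, above every 0% RPS library in 14 of 15. It rose by 0.80 ± 0.17 (log2, SE, DESeq2 p (adj) = 0.00122), and by 0.53, 1.03, and 0.83 at 2, 5, and 10% RPS. Hbegf, a ligand of the epidermal growth factor receptor, was at 426, 642.5, 599, 407, and 291 without starch, and on starch at 369 to 1511 with a median of 952. Its rise of 1.004 ± 0.23 (DESeq2 p (adj) = 0.00353) left 2 libraries on 2% RPS, at 369 and 475, within the 0% RPS range, and the other 13 lay above it. Atf3 differed from the usual order in that its highest libraries were on 2% RPS, where 3 of 5 stood between 798 and 1182. Its log2 fold changes were 1.01 ± 0.22 at 2%, 0.55 ± 0.22 at 5%, and 0.82 ± 0.22 at 10% RPS, and the overall rise was 0.79 ± 0.18 (DESeq2 p (adj) = 0.00247).

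Ffar4, a receptor for long-chain fatty acids, was at 759, 1034, 632, 409, and 313 normalised counts without starch and 717.8 to 1829 with it. The groups overlapped through replicates 1 and 2 of the 0% RPS diet. The rise went from 0.88 ± 0.20 (log2, SE, DESeq2 p (adj) = 0.00353) to 1.14 (DESeq2 p (adj) = 6.78e-06) without replicate 2. By diet it was 0.56, 0.95, and 1.13 at 2, 5, and 10% RPS. Ttyh1, a membrane protein of the tweety family, rose by 0.71 ± 0.16 (DESeq2 p (adj) = 0.00171), with 9 of 15 starch libraries above the highest 0% RPS library, replicate 1, at 632. Its diet values were 0.48, 0.73, and 0.91 at 2, 5, and 10% RPS. Upp1, Ttyh1, Atf3, Ffar4, and Hbegf were called whichever of the 20 libraries was left out, as were Akr1b7, Gm33424, and Art2a. edgeR adjusted p for these 5 genes lay between 0.0553 and 0.0711.

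Tmem253, a membrane protein of unknown function, was the most even of all 71 changed genes, at 0.60, 0.60, and 0.62 (log2, each ± 0.18) for 2, 5, and 10% RPS. Its counts were 199 to 380.0 without starch and 323 to 539 with it, and the overall rise was 0.61 ± 0.14 (DESeq2 p (adj) = 0.00475). That is barely over the fold threshold: it was 0.50 without 0% RPS replicate 2 and 0.56 to 0.58, under the threshold, without 0% RPS replicate 4 or 5, 2% RPS replicate 5, or 5% RPS replicate 2. Myl7, a myosin light chain best known from the heart atria, was at 73.9 to 108 without starch and at 91.0 to 250 on starch, a rise of 0.83 ± 0.21 (DESeq2 p (adj) = 0.00834) that was lost without 0% RPS replicate 4 (0.81, DESeq2 p (adj) = 0.0535). Tmem37 rose by 0.79 ± 0.19 (DESeq2 p (adj) = 0.00694) and was lost without 0% RPS replicate 4 (0.68, p (adj) = 0.0714) or replicate 5 (0.73, p (adj) = 0.0605). The other 9 genes that rose alike were Zbp1, Lpcat4, Prap1, Rpp25, Cd37, Sprr2a2, Fut2, Trim40, and Gchfr, at log2 fold changes of 0.61 to 0.91, and they were called in 6 to 19 of the 20 fits that left out a library. Without 0% RPS replicate 2, Lpcat4 went from 0.81 to 0.66 (DESeq2 p (adj) = 0.0713), Cd37 from 0.67 to 0.69 (p (adj) = 0.053), and Trim40 from 0.61 to 0.50 (p (adj) = 0.111), and none of these 3 was called. Among the 9, Zbp1 is a sensor of nucleic acids that triggers cell death, Fut2 adds fucose to epithelial glycans, and Lpcat4 remodels phospholipids.

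Slc15a1 showed the largest decrease among genes that shifted alike. It encodes PEPT1, the transporter by which the intestinal epithelium absorbs di- and tripeptides. It was at 198, 553, 164.5, 332, and 374 normalised counts in the 0% RPS libraries. On starch it was at 53.5 to 194 with a median of 114. In 13 of 15 starch libraries it lay below the lowest 0% RPS library, and the 2 exceptions were on 2 and 10% RPS at 194 and 167. The fold change was −1.48 ± 0.27 (log2, SE, DESeq2 p (adj) = 4.05e-05, edgeR p (adj) = 0.0195), and −1.16, −1.60, and −1.69 at 2, 5, and 10% RPS. It was the only one of the 27 falling genes called whichever library was left out. Without 0% RPS replicate 2, its highest library, it was −1.20 (DESeq2 p (adj) = 0.00124).

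Several of the other falling genes followed that same library. Replicate 2 of the 0% RPS diet was the highest of all 20 libraries in 12 of the 16 genes that fell alike. The share over all genes is not given here, and a call of lower on starch favours genes with a high 0% RPS library. Grem1, a secreted BMP antagonist of fibroblasts around the crypt base, was at 309, 1567, 254.5, 405, and 337 normalised counts without starch. On starch it was at 169 to 350.1, so 3 of the 5 libraries without starch lay within the starch range and another just above it. Its decrease of −1.11 ± 0.32 (log2, SE, DESeq2 p (adj) = 0.0263) became −0.29 without replicate 2 (DESeq2 p (adj) = 0.253). Insl5, a peptide hormone of colonic enteroendocrine cells, was at 77.9, 458, 68.2, 34.2, and 54.9 without starch and 34.9 to 71.1 with it. Its −1.42 ± 0.39 (DESeq2 p (adj) = 0.0158) became −0.17 (DESeq2 p (adj) = 0.638). The small GTP-binding protein gene Rasd2 went from −1.20 (DESeq2 p (adj) = 0.0157) to −0.33 (p (adj) = 0.368), and was also lost, at −1.16 to −1.20 with p (adj) of 0.0512 to 0.0536, without 2% RPS replicate 5 or 10% RPS replicate 3 or 5. The homeobox gene Hoxa7, which marks position along the body axis, went from −0.80 (DESeq2 p (adj) = 0.0336) to −0.22 (p (adj) = 0.418) and was also lost without 0% RPS replicate 4 (−0.84, p (adj) = 0.0969) and without 5 of the starch libraries (2% RPS replicates 2 and 5, 5% RPS replicate 2, 10% RPS replicates 3 and 5), at p (adj) of 0.0512 to 0.0554. The stromal and plasma cell marker sums of that library were given above, and their part in these decreases was not tested.

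Gli1, the transcription factor that reads out Hedgehog signalling in the gut mesenchyme, was at 138, 278, 204.5, 327, and 242 normalised counts without starch and 73.2 to 192 with it. It fell by 0.73 on the log2 scale (SE 0.18, DESeq2 p (adj) = 0.00734), and by 0.67 (p (adj) = 0.0222) without replicate 2, but the call was lost without 0% RPS replicate 4 (−0.59, p (adj) = 0.101). Tmem86a, an enzyme that cleaves lysoplasmalogens, went the other way: replicate 2 was its lowest 0% RPS library, at 176 against 356, 365, 552, and 685 in the others. With it the fold change was −0.80 (log2, DESeq2 p (adj) = 0.016), and without it −0.9997 (p (adj) = 9.48e-05), with all 15 starch libraries, at 137 to 349, below the remaining 4. The call was lost without 0% RPS replicate 4 (−0.69, p (adj) = 0.131) or replicate 5 (−0.57, p (adj) = 0.203). Rspo3, a stromal amplifier of Wnt signalling, was below the lowest 0% RPS library in 14 of 15 starch libraries and fell by 0.66 on the log2 scale (SE 0.17, DESeq2 p (adj) = 0.0115), against −0.51 (p (adj) = 0.0527) without replicate 2 and −0.63 (p (adj) = 0.0806) without replicate 5 of the 0% RPS diet. Tacr2, the neurokinin receptor of gut smooth muscle, fell by 0.73 on the log2 scale (DESeq2 p (adj) = 0.00509), and without replicate 2 stood at −0.47 (p (adj) = 0.0313), under the fold threshold. Col23a1, a transmembrane collagen, was barely past the threshold, at −0.59 (p (adj) = 0.00825) with and −0.41 (p (adj) = 0.0486) without it, and dropped under the threshold, to between −0.58 and −0.55, without any of 8 starch libraries (2% RPS replicates 2 and 5, 5% RPS replicates 1, 2, and 4, 10% RPS replicates 3, 4, and 5). Lrrc17, at −0.64 (p (adj) = 0.0354), was called without replicate 2 at −0.65 (p (adj) = 0.0471) and lost without 0% RPS replicate 4 (−0.58) or replicate 5 (−0.55), and at −0.63 with p (adj) of 0.053 to 0.0591 without 2% RPS replicate 1 or 5, 5% RPS replicate 2, or 10% RPS replicate 3. The homeobox gene Hoxa10 (−0.94), the matrix protein gene Aspn (−0.59), and the uncharacterised Gm44220 (−0.65) also fell alike, and were called in 4, 7, and 7 of the 20 fits that left out a library. Without 0% RPS replicate 2, Hoxa10 stood at −0.27 (DESeq2 p (adj) = 0.383), Aspn at −0.35 (p (adj) = 0.214), and Gm44220 at −0.76 (p (adj) = 0.0169).

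**Figure D2:**
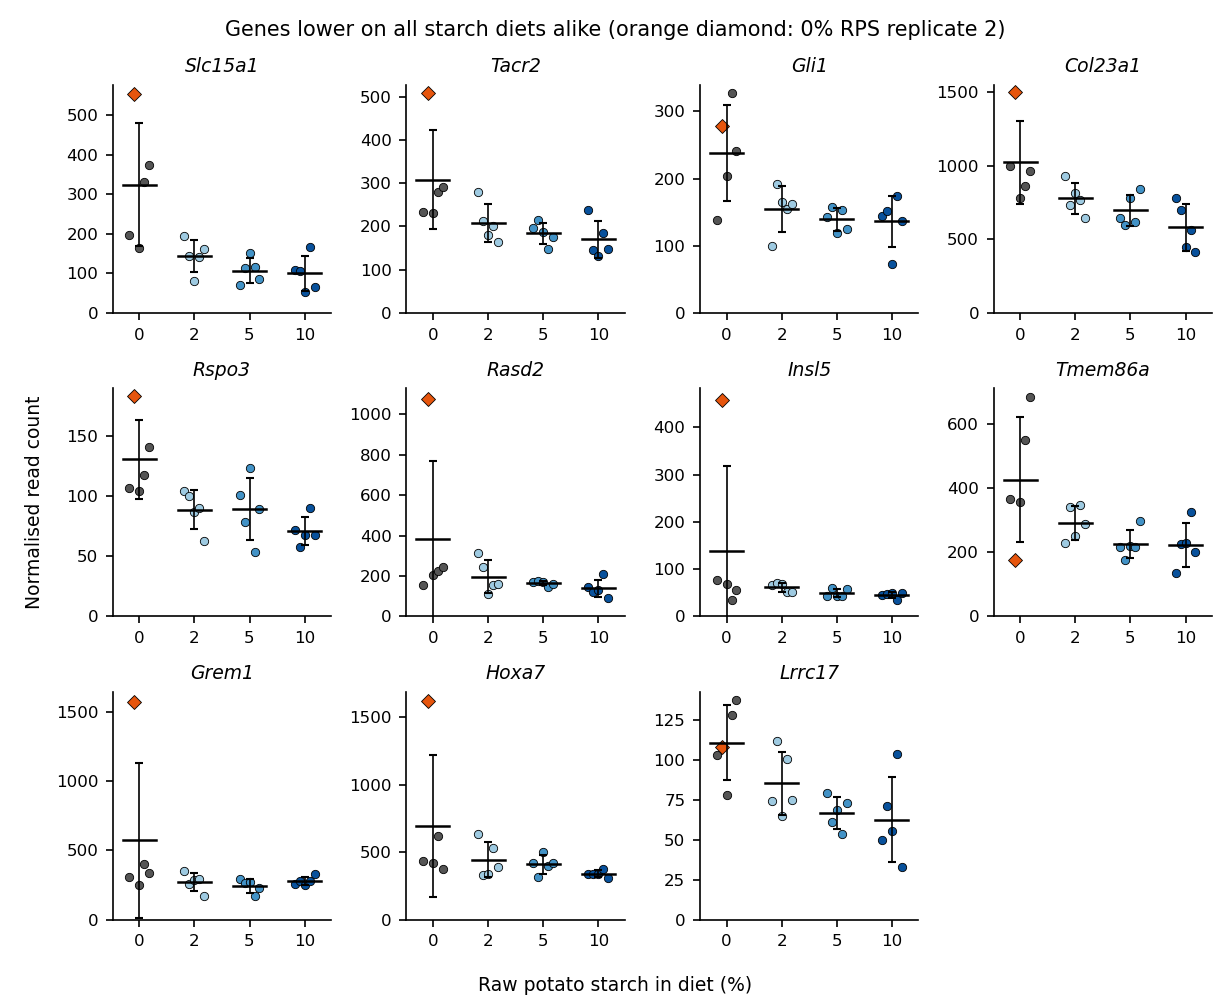
Normalised read counts of 11 genes that shifted downward alike, drawn as in the plot of the rising genes, with SD bars cut at the axis. In Rasd2, Insl5, Grem1, and Hoxa7 the orange diamond, 0% RPS replicate 2, lies far above the other 4 libraries of its diet, while in Slc15a1 those 4 also lie mostly above the starch diets and in Tmem86a the diamond is the lowest of its diet.

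Among the genes that rose alike, where the rule itself keeps the 3 diets close, the medians of the log2 fold changes were 0.57, 0.82, and 0.83 at 2, 5, and 10% RPS. In those that fell alike they were −0.63, −0.82, and −0.97. Over all 44 rising genes they were 0.57, 0.94, and 1.09, and over all 27 falling genes −0.68, −0.97, and −1.11. The value at 2% RPS was the smallest of the 3 in 28 of the 37 genes, and in 21 of them 2% was lowest and 10% highest. For 27 of the 37, the 95% interval of every pairwise difference between starch diets lay within 1 on the log2 scale, and for the other 10 a difference of 2-fold or more lies inside an interval. The rule limits the distance between estimates and is no test of equality. Among others, the interval of 10 minus 2% RPS excluded 0 for Art2a (0.06 to 0.64), Ttyh1 (0.06 to 0.81), Ffar4 (0.08 to 1.06), and Col23a1 (−0.78 to −0.06). That of 5 minus 2% RPS excluded 0 for Upp1 (0.09 to 0.91), 2210009P08Rik (0.10 to 0.73), Fut2 (0.07 to 0.97), and Atf3 (−0.89 to −0.03). In 17 of the 37, 8 upward and 9 downward, the fold change reached 1.5 at each of the 3 starch levels. Replicate 2 of the 0% RPS diet was the highest of all 20 libraries in 8 of these 9 falling genes. Without that library, 6 of the 8 rising and 2 of the 9 falling genes were called. The median log2 fold change of the 9 falling genes was −1.09 with it and −0.33 without it, and that of the 8 rising genes 0.87 and 0.89. Just inside the limit of 0.585 stood Ffar4 and Gm33424, with differences of 0.57 and 0.58 between their highest and lowest diet, and just outside it the retinol dehydrogenase Rdh16 (0.62) and guanine deaminase Gda (0.63). The 3 diets share the same 0% RPS libraries, so a high or low value there moves all 3 fold changes together.

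**Figure D3:**
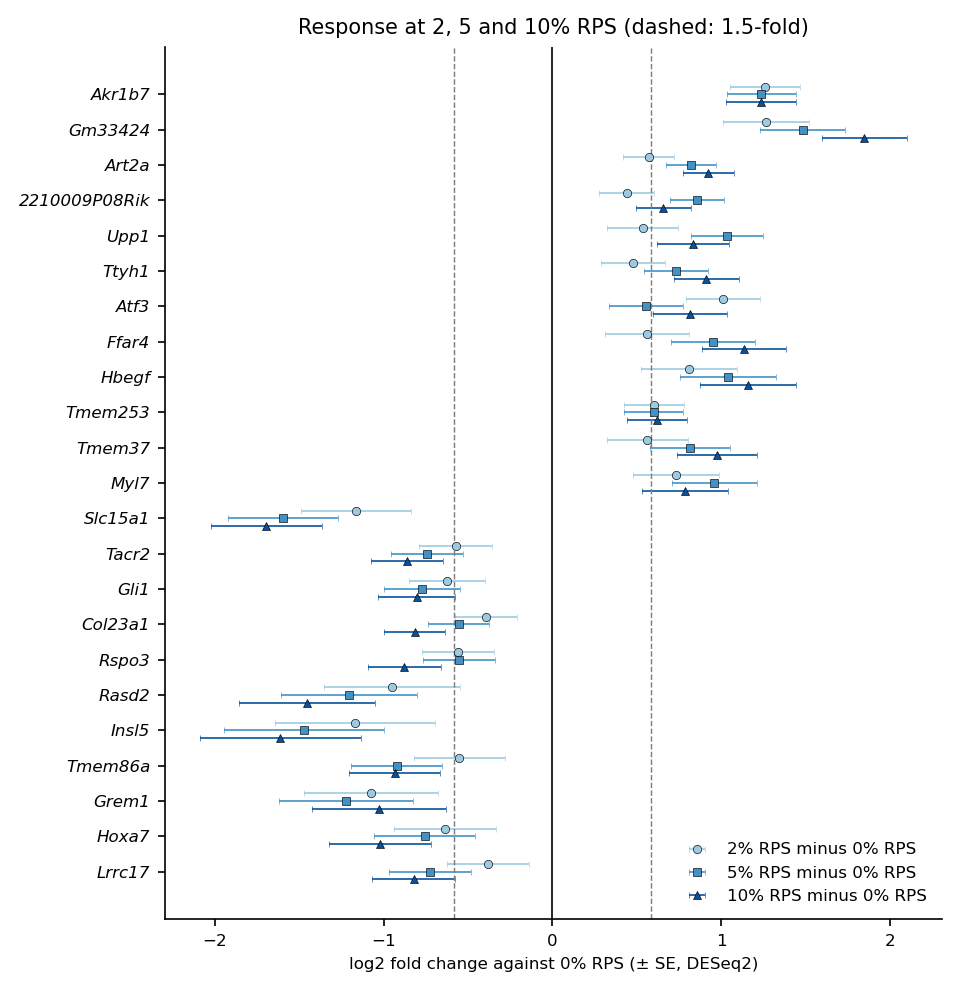
Log2 fold change against 0% RPS with SE (DESeq2) at 2, 5, and 10% RPS for 23 genes that shifted alike. The 3 symbols of Akr1b7 and Tmem253 nearly coincide, and those of Gm33424 and Slc15a1 spread towards larger changes at 10% RPS; dashed lines mark 1.5-fold.

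The likelihood ratio test of differences among the 3 starch diets passed for 10 of all genes with DESeq2 (0.0796%) and for 0 with edgeR (0%), and before adjustment p was under 0.05 for 737 (5.87%) and 619 (5.01%). Of the 71 changed genes only Irf7 passed it. DESeq2 gave no adjusted p in this test for several of the 71, Gm33424 and Igkv2-109 among them, so these could not pass. Of the 37 alike genes, whose diets the rule keeps close, 2 had an unadjusted DESeq2 p under 0.05. Irf7, the interferon regulatory factor that amplifies type I interferon responses, rose on starch as a whole by 0.62 ± 0.16 (log2, SE, DESeq2 p (adj) = 0.0122), yet stood at 0.32 ± 0.20 at 2%, 0.32 ± 0.20 at 5%, and 1.23 ± 0.20 at 10% RPS (likelihood ratio test, DESeq2 p (adj) = 0.00481). Its rise on starch as a whole was lost without 0% RPS replicate 4 (0.59, p (adj) = 0.0761) or replicate 5 (0.57, p (adj) = 0.0891), and was 0.57 to 0.58, under the fold threshold, without 2% RPS replicate 3 or 10% RPS replicate 1 or 3. Next in order were the noncoding Plet1os (0.10, 0.94, and 1.24) and Lypd8l, a relative of the antibacterial surface protein Lypd8 (0.52, 0.83, and 1.52), which missed the threshold after adjustment (DESeq2 p (adj) = 0.0591 and 0.0767).

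The genes with the largest changes were not among those that shifted alike, which is no test of a difference between their diets. The DESeq2 likelihood ratio test among starch diets gave unadjusted p of 0.496 for Reg3b, 0.323 for Reg3g, and 0.356 for Reg3a. For the immunoglobulin gene Igkv2-109 it gave 0.000661. Reg3b, a secreted lectin active against bacteria, was at 2114, 553, 8324, 2261, and 1095 normalised counts without starch and from 1723 to 127115 on starch. Its median on starch was 33461, and 13 of 15 starch libraries exceeded the highest 0% RPS library. The libraries on 2% RPS ran from 1723 to 127115, the full range of the starch diets, in a single diet. The rise was 4.15 ± 0.74 (log2, SE, DESeq2 p (adj) = 4.05e-05, edgeR p (adj) = 0.0573), with 3.66 ± 0.90, 4.71 ± 0.90, and 4.06 ± 0.90 by diet. Its relatives Reg3g and Reg3a rose by 3.47 ± 0.80 (DESeq2 p (adj) = 0.00345) and 1.94 ± 0.43 (DESeq2 p (adj) = 0.00167). Leaving out 1 library at a time moved Reg3b between 3.67 and 5.08 and Reg3g between 3.05 and 4.91, each time with the call kept and the highest value without 0% RPS replicate 3.

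Lpo, lactoperoxidase, which turns hydrogen peroxide into an antibacterial oxidant, was at 612, 469, 561, 565, and 623 normalised counts without starch. It was at 645 to 1753 on starch, with no overlap. Its rise of 0.89 ± 0.13 (log2, SE, DESeq2 p (adj) = 2e-08, edgeR p (adj) = 0.00601) grew from 0.53 through 0.95 to 1.21, which keeps it out of the alike genes. Mal, a membrane protein of apical transport, also separated the groups completely, at 843 to 1144 without and 1274 to 5512 with starch, and rose by 1.38 ± 0.28 (DESeq2 p (adj) = 0.000573, edgeR p (adj) = 0.0498). Rdh9, a retinol dehydrogenase, rose by 1.503 ± 0.35 (DESeq2 p (adj) = 0.00437) from low levels of 3.3 to 15.5, and 67.5% of its windows are shared, chiefly with Rdh16f1 and Rdh16. The largest decreases were in immunoglobulin variable genes, which vary between animals with their plasma cell clones and share 14.8 to 46.6% of their windows with related segments. Igkv8-30 fell by 2.42 on the log2 scale (DESeq2 p (adj) = 0.0324) and stood at −0.10 (p (adj) = 0.942) without 0% RPS replicate 2, which held 878 of its normalised counts against at most 102 in any other library; it was also lost without 5% RPS replicate 1 (−2.37, p (adj) = 0.0507). Ighv1-82 (−1.89, DESeq2 p (adj) = 0.0185) lost its call without replicate 2 (−1.39, p (adj) = 0.106) or replicate 5 (−1.83, p (adj) = 0.101), Igkv2-109 (−2.06, p (adj) = 0.0126) without replicate 3 (−1.19, p (adj) = 0.154), and Igkv10-94 (−2.08, p (adj) = 0.0153) without replicate 4 (−1.86, p (adj) = 0.119) or replicate 5 (−1.63, p (adj) = 0.184) of the 0% RPS diet.

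Of the 12348 genes averaging 10 normalised counts or more, 12 separated the 15 starch libraries from the 5 without starch (0.0972%), 9 with starch above (0.0729%) and 3 below (0.0243%). Of these 12, 5 were changed genes, Akr1b7, Gm33424, Lpo, Mal, and Rpp25. The other 7 moved by less than 1.5-fold. AW112010, a transcript induced in immune activation, was at 1334 to 1688 without and 1696 to 2380.2 with starch, a rise of 0.43 ± 0.08 (log2, SE, DESeq2 p (adj) = 5.48e-05). Pcyt1a, the rate-limiting enzyme of phosphatidylcholine synthesis, rose by 0.21 ± 0.04 (DESeq2 p (adj) = 7.82e-05), Tmbim4 by 0.18 ± 0.04 (p (adj) = 0.00178), and Gfod2 by 0.31 ± 0.08 (p (adj) = 0.0123). Pdgfrb, a growth factor receptor of pericytes and fibroblasts, was at 806 to 953 without and 595 to 804 with starch and fell by 0.35 on the log2 scale (SE 0.06, DESeq2 p (adj) = 4.42e-05), and replicate 2 was not its highest library. 9430015G10Rik (−0.28) and R3hdm2 (−0.15) completed the group.

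Gene lists chosen for this tissue were read by how many members passed DESeq2's adjusted p of 0.05 without a fold threshold, a rule that 2.75% of all genes pass upward and 1.59% downward; the median log2 fold change of all genes was −0.01. In the antimicrobial and peroxide list 6 of 21 measured members rose and 0 fell (Lpo, Reg3b, Reg3a, Reg3g, Lypd8, and the peroxide-producing oxidase Duox2), with a list median of 0.38. Duox2 stood at 0.92 (DESeq2 p (adj) = 0.0164), and at 1.17 (p (adj) = 0.000809) without 0% RPS replicate 2. Its call was lost without replicate 4 (0.89, p (adj) = 0.091) or replicate 5 (0.78, p (adj) = 0.125) of that diet. Among interferon-stimulated genes 3 of 29 rose, Zbp1, Irf7, and the tryptophan-degrading enzyme Ido1, and the median was 0.05. Ido1, at 0.73 (DESeq2 p (adj) = 0.0282), lost its call without replicate 1 (0.63), 2 (0.55), 4 (0.81), or 5 (0.77) of the 0% RPS diet, at p (adj) of 0.0579 to 0.0848. Of 10 members of the IL-22 and STAT3 list 4 rose, Fut2, Il10rb, Stat3, and Bcl3. Fut2 stood at 3977 to 6166 normalised counts without starch and at 4217 to 12242 with it. Il10rb, a receptor chain shared by interleukins 10 and 22, rose by 0.13 ± 0.04 (DESeq2 p (adj) = 0.0345), with 25.2% of its windows shared. Without 0% RPS replicate 2, Fut2 (0.62, p (adj) = 0.0911), Il10rb (0.12, p (adj) = 0.077), and Lypd8 (0.21, against 0.24 with it, p (adj) = 0.104) did not pass. edgeR, which passed 0.291% of all genes by this rule, passed 1 member of these 3 lists, Lpo.

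Bdh1, which interconverts ketone bodies, was the only member of 25 in the fatty acid oxidation and ketogenesis list to pass, at 0.20 ± 0.06 (log2, SE, DESeq2 p (adj) = 0.0456), with 0.22, 0.16, and 0.22 across the diets, but it did not pass without 0% RPS replicate 2 (0.18, p (adj) = 0.0937). Slc5a8, a sodium-coupled carrier of butyrate and lactate, was the only one of 8 in the short-chain fatty acid list, at 0.34 ± 0.10 (DESeq2 p (adj) = 0.0345), with 0.08 at 2% against 0.55 at 10% RPS. In lipid absorption Mogat2, an enzyme of triglyceride resynthesis, rose by 0.77 ± 0.21 (DESeq2 p (adj) = 0.0169), lost without 0% RPS replicate 2 (0.62, p (adj) = 0.0524), replicate 4 (0.68, p (adj) = 0.121), or replicate 5 (0.70, p (adj) = 0.114). Abca1, the exporter of cellular cholesterol, fell by 0.46 on the log2 scale (SE 0.11, DESeq2 p (adj) = 0.00694), and it lay below every 0% RPS library in 13 of 15 starch libraries. Of the 20 cholesterol synthesis genes, with a median of 0.27 and Srebf2, the transcription factor of the pathway, at 0.12 ± 0.09, 0 passed with DESeq2 or edgeR. Before adjustment 3 and 2 of the 20 had a p under 0.05, against 19.8% of all genes in DESeq2 and 19% in edgeR. In salt and water absorption 1 of 18 members rose, the sodium channel subunit Scnn1b (0.67 ± 0.17, DESeq2 p (adj) = 0.0071; 0.65 with p (adj) = 0.0507 without 0% RPS replicate 4 and 0.64 with p (adj) = 0.0588 without replicate 5). In xenobiotic metabolism 2 of 32 rose, Akr1b7 and the sulfotransferase Sult1b1 (0.17 ± 0.04, DESeq2 p (adj) = 0.0114), whose diet values were 0.19, 0.15, and 0.18. Without 0% RPS replicate 2, 3 of the 18 salt and water genes rose (Scnn1b, Clca4a, and Aqp4), and in the xenobiotic list 2 rose and 5 fell (Akr1c19, Abcb1a, Cyp2d26, Ugt1a7c, and Ugt1a6a), where 4.05% of all genes passed upward and 2.35% downward. Of 12 solute and peptide transporters, Slc15a1 fell and 0 rose.

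Among structural and regulatory lists, the junction proteins F11r and Cldn7 rose (2 of 18). F11r, or JAM-A, was at 0.20, 0.22, and 0.22 across the diets and 0.22 ± 0.05 overall (log2, SE, DESeq2 p (adj) = 0.0062), and Cldn7 was at 0.14 ± 0.04 (DESeq2 p (adj) = 0.0393, and 0.0703 without 0% RPS replicate 2). Atf3 was the only one of 19 immediate-early genes to pass, where the median was 0.30. Of 23 cell cycle genes (Mki67 at 0.08 ± 0.14) 0 passed with DESeq2 or edgeR, and 1 and 0 had an unadjusted p under 0.05. Of 8 genes of MHC class II presentation (Ctss at 0.05 ± 0.08) likewise 0 passed with either, and 1 had an unadjusted p under 0.05 in each. Over all genes, 19.8% had an unadjusted p under 0.05 in DESeq2 and 19% in edgeR. Of the marker lists, 3 of 12 colonocyte markers rose (Krt20, Ceacam1, and Epcam), and Epcam did not pass without 0% RPS replicate 2 (0.13 in both fits, p (adj) = 0.0585). The colonocyte markers summed to 293484 normalised counts in that library, the lowest of all. The 0% RPS libraries had a median of 467717 and a highest sum of 599935, against 539134 to 766690 on starch. Of 5 endothelial markers, Tek, a receptor for angiopoietins, fell by 0.33 on the log2 scale (DESeq2 p (adj) = 0.0108; −0.27 with p (adj) = 0.0444 without that library). Of the goblet cell markers, 0 of 8 passed with DESeq2 or edgeR, where 7 and 5 had an unadjusted p under 0.05. Without 0% RPS replicate 2, where 6.4% of all genes passed, 5 of the 8 rose (Muc2, Clca1, Agr2, Spdef, and Spink4).

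**Figure D4:**
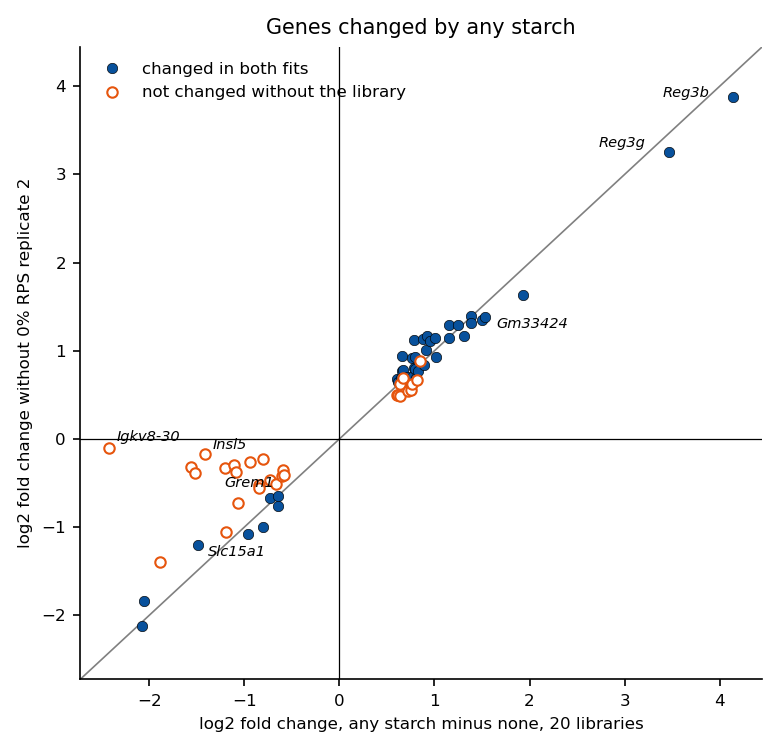
Log2 fold change of any starch minus none for the 71 changed genes with all 20 libraries (x axis) and without 0% RPS replicate 2 (y axis), DESeq2. Filled points were called in both fits and open points were not called without that library; rising genes lie along the diagonal, while Insl5, Grem1, and Igkv8-30 move to near 0.

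With 0% RPS replicate 2 left out, 0.589% of all genes were called upward and 0.302% downward, and 42 of the 71 changed genes were among them, 34 of 44 rising and 8 of 27 falling, and all 71 kept their sign. The median log2 fold change of the rising genes was 0.80 with and 0.86 without it, and that of the falling genes −0.96 and −0.51. Of the 37 genes that shifted alike, 20 were also changed and alike without it, 15 of 21 rising and 5 of 16 falling. Whichever library was left out, 18 genes were called each time, 17 rising and 1 falling. Those that were not alike among them were Reg3b, Reg3g, Reg3a, Lpo, Lypd8l, Mal, Gda, Rdh16, and Ceacam12. Leaving out 0% RPS replicate 4 or replicate 5 cost more calls, 34 and 36 of the 71, than leaving out replicate 2, at 29. A further 4 of the 71 without replicate 4 and 1 without replicate 5 had no adjusted p in DESeq2 and are not in these numbers.

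**Figure D5:**
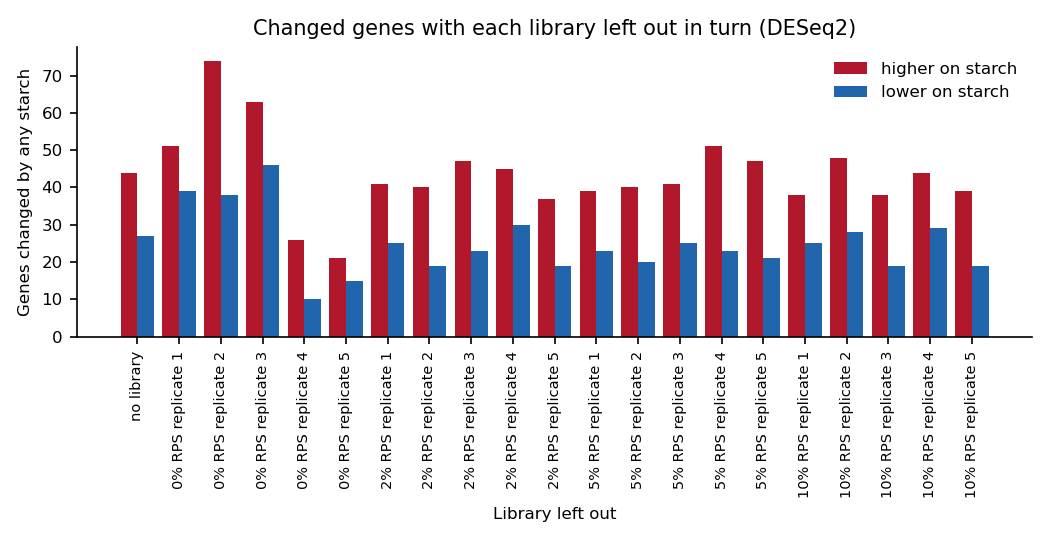
Number of genes changed by any starch (DESeq2) with each library left out in turn, as bars from 0, upward in red and downward in blue. The counts move most with the 0% RPS libraries, from 21 rising without replicate 5 to 74 without replicate 2, and less with any single starch library.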

How the data were processed

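The PC libraries were stranded mRNA sequenced as single reads of 50 bases. The methods of the study state that the authors trimmed the reads and mapped them to GRCm39 in CLC Genomics Workbench. The deposited table holds whole-number counts per gene, 1 column per library, whose totals differ between libraries. The annotation, the use of strand, the handling of reads with several matches, and the rule behind the 12701 genes in the table are not given in the sources used here, so counts of overlapping or near-identical genes are uncertain. Nothing states whether mice shared litters or cages, so p-values measure the spread between these libraries.

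DESeq2 (version 1.42.0, R version 4.3.3) was fitted to all 20 libraries with diet as the only term, and the mean of the 3 starch diets was contrasted with 0% RPS (12561 genes with a p). Normalised counts are counts over DESeq2 size factors, ± is an SE, and p (adj) is Benjamini-Hochberg adjusted. Differences among starch diets were tested by likelihood ratio, and edgeR (version 4.0.16) was run on the same design. Distances among libraries used variance-stabilised counts of genes with a mean of at least 10. The steps were also run on simulated counts with equal changes on all starch diets. These held no outlying library, so that run does not cover the dependence on single 0% RPS libraries. Named genes were the 12 alike in each direction, the 4 others with the largest change in each direction, the 3 that differed most among starch diets, and up to 2 per list and direction, by adjusted p or size. Others are named for their place in a count. Some results that the rule named are not reported here. The members and lists were chosen with earlier results of these data known. Promoters, coordinates, and symbols came from GENCODE M39 on GRCm39 (12682 identifiers matched).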

Additional observations from a re-analysis of the deposited data

Results flagged for a closer look

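Within diets of 5 libraries, the highest or lowest library stood apart from the rest, by a gap over 0.71 of the range (Dixon's 95% limit), in 17 of 200 tests over the named genes. Chance gives about 1 in 20 for genes not chosen by their values. The named genes were mostly chosen because 0% RPS differed from starch, which favours genes with an extreme 0% RPS library. The tests also share libraries and are not independent. In 8 of the 17 the library was 0% RPS replicate 2. It was the highest for Rasd2 (gap 0.907 of the range), Insl5 (0.897), Igkv8-30 (0.894), Grem1 (0.886), Hoxa7 (0.807), Tacr2 (0.787), and Scnn1b (0.787), and the lowest for Reg3a (0.759), which had 1.04 normalised counts there against 17.6 to 22.8 in the 4 others.

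Replicate 3 of the 0% RPS diet was the highest for Reg3g (0.916), Fut2 (0.83), and Reg3b (0.78), and replicate 1 for Ttyh1 (0.777). On 2% RPS, replicate 5 was the highest for Reg3b (0.81), Reg3a (0.758), and Reg3g (0.755). Among immunoglobulin genes, 10% RPS replicate 4 was the highest for Ighv1-82 (0.799) and 5% RPS replicate 4 for Igkv10-94 (0.779).

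Irf7 is the changed gene that passed the test of differences among the starch diets (DESeq2 likelihood ratio test, p (adj) = 0.00481).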

How the results depend on the processing

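The direction of the named genes was the same under every alternative run except for Ctss, which was not called (0.05 with all libraries) and was at −0.0018 without 0% RPS replicate 2 and −0.02 without replicate 3. The 71 changed genes became 10 with edgeR, 5 with edgeR on a 2-level design (53 with DESeq2), 110 with limma voom and quality weights, 44 with edgeR without 0% RPS replicate 2 (chosen after seeing the data), 545 with no fold threshold, and 26 at 2-fold. TMM factors, filters on low counts, a smooth muscle covariate, a surrogate variable, and leaving out 3 libraries of outlying label number gave 51 to 94. The 37 alike genes became 10 when the starch diets had to lie within a ratio of 5 to 4, 62 within 2-fold, and 6 with edgeR. The 10 genes that differed among starch diets became 0 with edgeR.

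Leaving out 1 library at a time gave 36 to 112 changed genes, 18 to 74 alike genes, 0 to 52 genes that differed among starch diets, 12 to 94 genes without overlap, and a share of squared distance of 9.87 to 14.0%. With edgeR, 17 of the 50 named genes stayed on their side of the threshold and 33 missed it. With 5 libraries on 0% RPS, each of them moves the calls, and smaller changes may be missed. No paired analysis was possible because the labels carry no replicate numbers shared between diets.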

Other observations

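With 0% RPS replicate 2 left out, a choice made after seeing the data, DESeq2 called genes that were not called with all libraries. Among them were Retnlb, a goblet cell protein active against bacteria, at 1.61 (log2) against −1.49 with all libraries, Aqp4, a water channel, at 1.19 against −1.02, and Ccn3, a matricellular protein, at 1.11 against −0.01. Duoxa2, the maturation factor of the peroxide-producing oxidase Duox2, was at 1.80, and Il18, an epithelial cytokine, at 0.81. Sis, the brush border sucrase-isomaltase, was at −1.21 and the efflux pump Abcb1a at −0.67. These genes were picked after their values were seen.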
